A study of Mus musculus with 16 samples.

Results

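The 10 genes of MHC class I presentation described here are H2-K1, H2-D1, B2m, Tap1, Tap2, Tapbp, Psmb8, Psmb9, Psmb10 and Nlrc5. They were found by gene symbol among the 23282 rows (23238 distinct symbols) of the count tables, each in 1 row, and all 10 were among the 14854 rows with enough counts to be tested. The libraries were made from dorsal skin of male wild-type C57BL/6N mice, which were 3 weeks old at purchase and were housed for 1 week before use. There were 16 libraries, 4 in each of 4 groups, from skin samples that the authors drew at random. Cont mice ate normal chow. LowAhR mice ate a diet low in ligands of the aryl hydrocarbon receptor (AhR), a transcription factor that responds to plant and microbial compounds, for 12 weeks. LowAhR+AD mice ate the same diet and, from 2 weeks into it, had 1% 2,4-dinitrochlorobenzene (DNCB) in acetone and olive oil put on the dorsal skin 2 times a week. DNCB is a hapten that causes contact dermatitis and serves here as a model of atopic dermatitis (AD). LowAhR+AD+BJ mice had the diet, DNCB and a daily gavage of 1 g/kg of the herbal extract BJIKT in water. The 3 groups on the diet also shared paper bedding, and DNCB was given to no group on normal chow, so a value in the DNCB groups holds for mice on this diet.

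MHC class I molecules show peptides from inside the cell to CD8 T cells and natural killer cells. H2-K1 and H2-D1 encode the classical heavy chains, and B2m the beta 2-microglobulin light chain that pairs with them. Proteasomes cut the peptides, and in immune cells or after interferon the subunits encoded by Psmb8, Psmb9 and Psmb10 take the places of the constitutive catalytic subunits. The transporter made of Tap1 and Tap2 carries peptides into the endoplasmic reticulum, and tapasin (Tapbp) holds the heavy chain to it. Nlrc5 is a transactivator that acts at promoters of these genes. In skin, keratinocytes, fibroblasts and leukocytes can all express them.

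In the mouse assembly GRCm38.p6 (the build that mm10 names), 7 of the genes lie on chromosome 17 within 1348 kb. Psmb9, Tap1, Psmb8 and Tap2 stand side by side there in 34292 bases, and the start sites of Psmb9 (chr17:34182030-34187330, minus strand) and Tap1 (chr17:34187556-34197225, plus strand) point away from each other, 225 bases apart. Psmb10 and Nlrc5 are on chromosome 8, and B2m is on chromosome 2. RefSeq promoter windows, from 250 bases before to 50 bases after the start, were found for 8 of the 10, without Tap2 and Nlrc5. Upstream stretches of 5 genes are shown because they hold the letters of an NF-kB, interferon response or CRE core. The stretch of Tap1 and Psmb9 holds only the CRE core. Genes with nearly the same letters are also compared with each other further on. They are written 5′ to 3′ in the direction of the gene (for the stretch between Psmb9 and Tap1, that of Tap1), from RefSeq, GRCm38.p6. Capitals mark matches, on either strand, to GGGNNTTCC (an NF-kB core), TTTCNNTT (an interferon response core) or TGACG (a CRE core).
H2-K1, chr17:34000429-34000458, minus strand: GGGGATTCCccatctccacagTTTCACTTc
H2-D1, chr17:35262923-35262952, plus strand: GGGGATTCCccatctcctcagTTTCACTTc
B2m, chr2:122147437-122147685, plus strand: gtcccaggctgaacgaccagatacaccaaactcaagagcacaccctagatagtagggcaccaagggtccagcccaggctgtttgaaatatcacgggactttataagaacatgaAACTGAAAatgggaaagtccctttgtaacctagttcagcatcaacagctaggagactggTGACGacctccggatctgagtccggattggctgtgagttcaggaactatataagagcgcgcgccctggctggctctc
Tap1 and Psmb9, chr17:34187460-34187489, plus strand: cagagacaggTGACGacagagggtcctgcc
The stretches of H2-K1 and H2-D1 were identical at 29 of 30 bases, the difference being A18T (H2-K1's base, the position from the 5′ end, then H2-D1's base), and begin 111 and 171 bases before the starts that the promoter windows use. For H2-K1 that start lies inside the longest RefSeq span of the gene (chr17:33996012-34000619), so the stretch lies within that span. TTTCNNTT was in the windows of H2-K1, H2-D1 and B2m (3 of 8), and in 23.9% of all 32851 promoter windows. GGGNNTTCC was in those of H2-K1 and H2-D1 and in 5.82% of all windows. TGACG was in 5 of 8 (H2-K1, H2-D1, B2m, Tap1 and Psmb9) and in 20.8% of all, and TTCNNNGAA (a GAS core) was in that of Psmb8 and in 8.3% of all. The TGACG matches of Tap1 and Psmb9 are the same bases between their starts, so that site counts for both genes. In these windows no match overlapped a match to another of the motifs. A match is a description of the letters and not evidence of binding.

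Library totals ranged from 7080508 to 8773876 counts in the Cont and LowAhR groups and from 10614393 to 13467477 in both DNCB groups. The depth ranges did not overlap, and in single libraries 3 counts, the most that a count of 0 allows, stood for 0.229 to 0.406 CPM (counts scaled to a common library total). Such limits cover counting error only. LowAhR+AD replicate 1 stood apart, since no read was counted there for 37.4% of those genes that, by the rest of its group, should have had 20 to 40 counts, against at most 13.7% in any other library. It was also the library farthest from the rest of its group in the class I genes, with 6 of 10 more than 1 log2 unit away (median distance 1.24). It had the highest level of all 16 libraries in Tap1, Tapbp and Nlrc5 and the lowest in H2-D1, B2m, Tap2 and Psmb9. The values that it moves most are given with and without it. All levels are CPM on TMM-normalised library sizes. Because the reads come from the 3′ end of each transcript, they do not scale with transcript length. Each single gene is compared with itself between libraries. Ratios of subunits and sums over gene lists are read only for their change between libraries and groups, not for their own value.

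**Figure D1:**
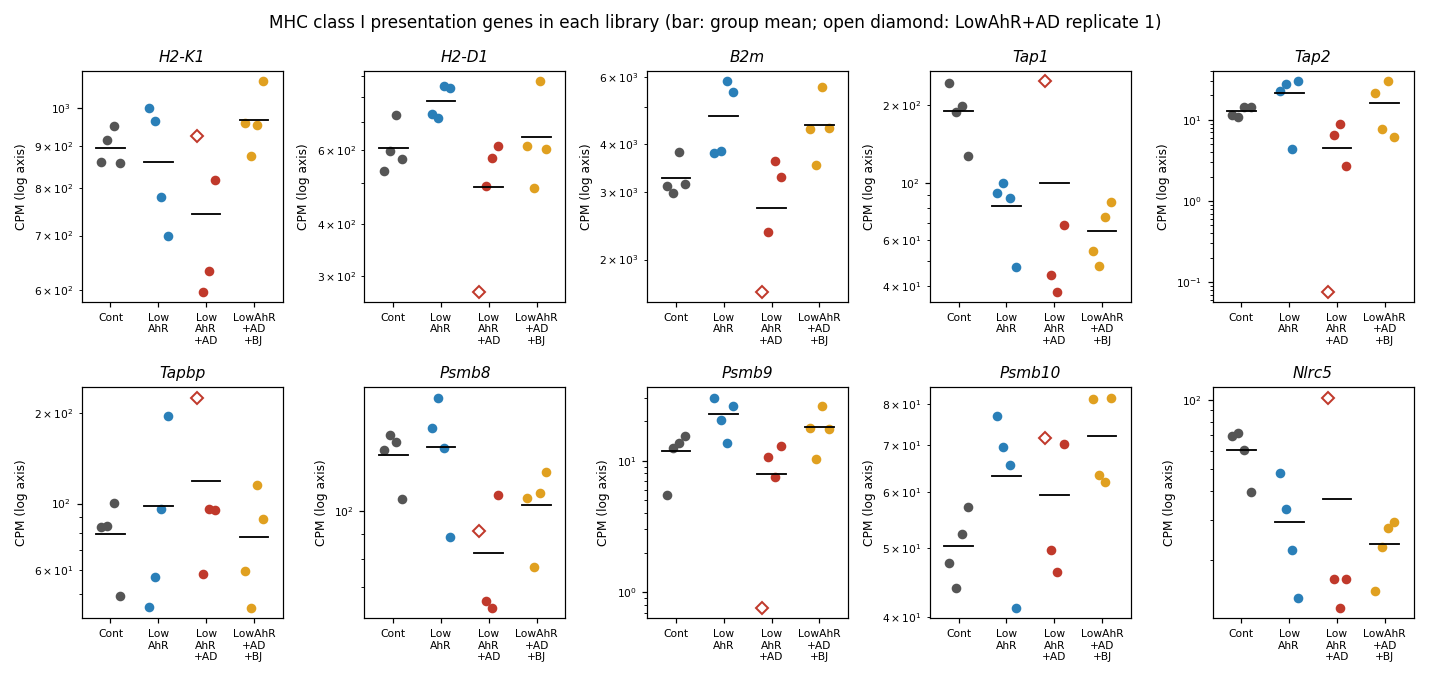
CPM (log axis, with a scale of its own in each panel) of the 10 class I presentation genes in each library, by group; points are libraries, bars are group means, and the open diamond is LowAhR+AD replicate 1. That library is the highest of all in Tap1, Tapbp and Nlrc5 and the lowest in H2-D1, B2m, Tap2 and Psmb9, and the groups overlap in most panels.

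Across the 4 groups the class I chains, Tap2 and 2 of the immunoproteasome subunits, Psmb8 and Psmb9, had their lowest mean in LowAhR+AD, and Tap1 and Nlrc5 had their highest mean in Cont. In LowAhR+AD against LowAhR, 7 of the 10 genes were lower and 3 higher, with a median log2 fold change of -0.45, beside 0.038 over all tested genes. Psmb8 was the 1 gene that passed the test, and it fell by 0.72 on the log2 scale. Over all 14854 genes, 12.6% were called in this comparison and 6.21% were called lower, so 1 of 10 is near the background. By the unadjusted p under 0.05, 5 of the 10 were below the threshold (H2-D1, B2m, Tap2, Psmb8 and Psmb9, all lower), beside 28.1% of all genes. H2-D1, B2m and Psmb9 were lower in LowAhR+AD without overlap between the groups, and 9.85% of all genes were. Without LowAhR+AD replicate 1, Psmb8 was again the 1 gene called (edgeR adjusted p = 0.0496), beside 11.4% of all genes, and the median was -0.66. With all libraries, DESeq2 called 5 of the 10 (H2-D1, B2m, Tap2, Psmb8 and Psmb9), beside 18% of all genes. By limma voom 4 were called (those genes but Tap2), beside 14.1% of all. The labels do not say that the 4 samples of a group came from separate mice, so p-values measure the spread between these samples. Comparisons that share a group share its libraries. In whole skin, fewer cells of a type and less RNA per cell cannot be told apart.

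**Figure D2:**
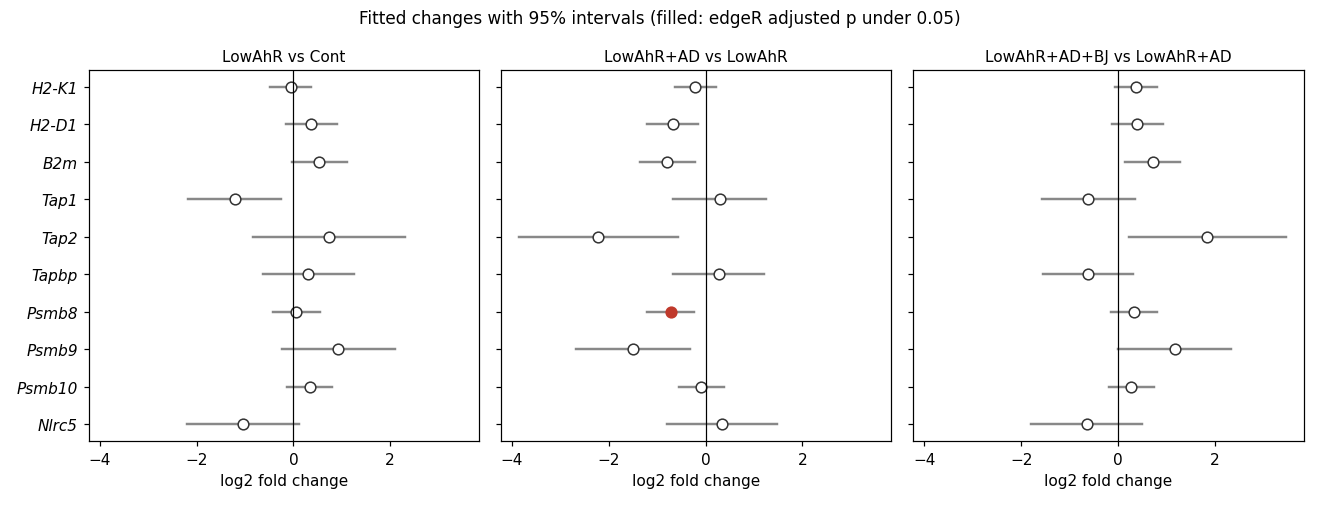
Fitted log2 fold changes (x axis) of the 10 genes with 95% intervals in 3 comparisons; filled points passed edgeR's adjusted p of 0.05. Psmb8 in LowAhR+AD vs LowAhR, at -0.72, is the only filled point, and the widest intervals belong to Tap2.

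Among the class I chains, B2m had 3118, 2992, 3823 and 3154 CPM in Cont replicates 1 to 4, 3786, 3828, 5835 and 5462 in LowAhR, 1651, 2361, 3619 and 3282 in LowAhR+AD, and 4383, 3529, 5634 and 4407 in LowAhR+AD+BJ. Each LowAhR library was higher in B2m than each LowAhR+AD library, and 3 of the 4 LowAhR+AD+BJ libraries were higher than every LowAhR+AD library. B2m in LowAhR+AD differed from LowAhR by -0.79 on the log2 scale (SE 0.27, edgeR adjusted p = 0.0631, exact permutation p = 0.0286, the smallest that 4 against 4 can give). Without LowAhR+AD replicate 1, it was -0.62. In LowAhR+AD+BJ against LowAhR+AD, the change of B2m was 0.72 (SE 0.27, 95% interval 0.15 to 1.29, edgeR adjusted p = 0.499), or 0.54 (edgeR adjusted p = 0.939) without LowAhR+AD replicate 1. LowAhR against Cont gave 0.53 (edgeR adjusted p = 0.405).

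H2-D1 had 533, 596, 726 and 572 CPM in Cont replicates 1 to 4, 728, 716, 849 and 839 in LowAhR, 276, 492, 572 and 613 in LowAhR+AD, and 612, 486, 873 and 604 in LowAhR+AD+BJ. LowAhR+AD was below LowAhR in every library, with a log2 fold change of -0.68 (SE 0.25, edgeR adjusted p = 0.08, exact permutation p = 0.0286), and -0.49 without LowAhR+AD replicate 1. After BJIKT the groups overlapped, and H2-D1 differed from LowAhR+AD by 0.40 on the log2 scale (edgeR adjusted p = 0.615), or by 0.20 without LowAhR+AD replicate 1. H2-K1 spread less, from 598 CPM in LowAhR+AD replicate 2 to 1079 CPM in LowAhR+AD+BJ replicate 4, a 1.8-fold range over the 16 libraries. Its group means were 896 ± 46.1 CPM (SD, n = 4) in Cont, 861 ± 145 in LowAhR, 744 ± 155 in LowAhR+AD and 967 ± 84.4 in LowAhR+AD+BJ. The log2 fold change of H2-K1 was -0.21 in LowAhR+AD against LowAhR (edgeR adjusted p = 0.539), -0.34 without LowAhR+AD replicate 1, and 0.38 in LowAhR+AD+BJ against LowAhR+AD (edgeR adjusted p = 0.562). In the last 300 bases of their reference transcripts, 0.803% of the 75-base windows of H2-K1, and none of H2-D1, were also in a transcript of another gene on the same strand, so their reads can mostly be told apart. How the authors treated reads with several matches is not given in the sources used here.

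In the peptide transporter, Tap1 had 244, 189, 198 and 127 CPM in Cont replicates 1 to 4, 91.6, 99.96, 87.6 and 47.4 in LowAhR, 247, 44.0, 38.0 and 69.0 in LowAhR+AD, and 54.5, 47.5, 73.9 and 84.7 in LowAhR+AD+BJ. All Cont libraries were higher in Tap1 than all LowAhR libraries and all LowAhR+AD+BJ libraries, while LowAhR+AD replicate 1 was at the level of the highest Cont library. How many of all genes separate Cont from LowAhR+AD+BJ was not counted. In LowAhR against Cont, the log2 fold change of Tap1 was -1.21 (SE 0.46, 95% interval -2.18 to -0.25, edgeR adjusted p = 0.227, exact permutation p = 0.0286). Tap1 was the only 1 of the 10 genes without overlap in that comparison, lower as 5.63% of all genes were, and no gene of the 10 and 0% of all tested genes were called there by edgeR. At an unadjusted p under 0.05 were 1 of the 10 genes (Tap1) and 13.7% of all. A model of only these 8 libraries called Tap1 (edgeR adjusted p = 0.0378) and 1.84% of all genes. On all libraries DESeq2 called 0 of the 10 and 3.31% of all genes, and limma voom 0 of the 10 and 0% of all. Against Cont, LowAhR+AD libraries gave Tap1 a log2 fold change of -0.93 (edgeR adjusted p = 0.161) with LowAhR+AD replicate 1 and of -1.93 (edgeR adjusted p = 0.00037) without it.

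Tap2 gave few reads, with 11.55, 10.7, 14.4 and 14.4 CPM in Cont replicates 1 to 4, 22.6, 28.0, 4.42 and 29.8 in LowAhR, 0.0763, 6.56, 8.78 and 2.73 in LowAhR+AD, and 21.4, 7.74, 29.95 and 6.15 in LowAhR+AD+BJ. The value of LowAhR+AD replicate 1 rests on 1 count. The LowAhR+AD libraries were all below the Cont libraries in Tap2, as 11.8% of all genes were, and overlapped with LowAhR through LowAhR replicate 3. From LowAhR to LowAhR+AD, Tap2 had a fitted change of -2.22 on the log2 scale (SE 0.78, edgeR adjusted p = 0.0688, exact permutation p = 0.0857). Without LowAhR+AD replicate 1, it was -1.82. With BJIKT, Tap2 had 16.3 ± 11.4 CPM (SD, n = 4) against 4.54 ± 3.89 in LowAhR+AD, which is a difference of 1.84 on the log2 scale with a 95% interval from 0.22 to 3.47 (edgeR adjusted p = 0.503). This difference was 1.43 (edgeR adjusted p = 0.939) without LowAhR+AD replicate 1. Tapbp, the tapasin gene, ranged from 45.0 CPM in LowAhR+AD+BJ replicate 2 to 225 CPM in LowAhR+AD replicate 1, and its groups overlapped in all 5 comparisons. Its group means were 79.4 ± 21.6, 98.4 ± 68.3, 119 ± 73.1 and 77.2 ± 31.3 CPM (SD, n = 4 each) from Cont over LowAhR and LowAhR+AD to the BJIKT group. For Tapbp, LowAhR+AD was at 0.27 from LowAhR on the log2 scale (edgeR adjusted p = 0.742) and -0.24 without LowAhR+AD replicate 1. A transcript of Zbtb22 shares 1.86% of the windows at the end of Tapbp, and a gene on the other strand, Gm19412, shares 19.6%. For Tap2 and Psmb8 the share on the other strand was 9.87% and 7.54%, with Gm20496. Whether reads were counted by strand is not given in the sources used here.

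Among the immunoproteasome subunits, Psmb8 (beta 5i) had 133, 143, 138 and 106 CPM in Cont replicates 1 to 4, 148, 171, 134 and 88.4 in LowAhR, 91.1, 65.6, 63.5 and 108 in LowAhR+AD, and 106, 77.1, 109 and 120.2 in LowAhR+AD+BJ. The LowAhR+AD libraries lay below 3 of the 4 LowAhR libraries and 3 of them lay below every Cont library, so the groups overlapped in both comparisons. Psmb8 fell by 0.72 on the log2 scale from LowAhR to LowAhR+AD (SE 0.23, 95% interval -1.21 to -0.24, edgeR adjusted p = 0.0479, exact permutation p = 0.0857). In LowAhR+AD against Cont the log2 fold change was -0.67 (SE 0.23, edgeR adjusted p = 0.0475, exact permutation p = 0.0571). Psmb8 was again the 1 gene of the 10 called in that comparison, in which 21.8% of all genes were called and 9.47% called lower. At an unadjusted p under 0.05 was 1 of the 10 genes there, beside 34.1% of all. Both calls were close to the threshold. Against LowAhR, 3 of the 8 fits with 1 library removed called Psmb8, and edgeR gave an adjusted p of 0.113, 0.149 and 0.0886 without LowAhR replicates 1, 2 and 3, and 0.124 and 0.106 without LowAhR+AD replicates 2 and 3. Against Cont, 3 of 8 such fits called it, and edgeR gave an adjusted p of 0.0879, 0.112 and 0.104 without Cont replicates 1, 2 and 3, and 0.13 and 0.123 without LowAhR+AD replicates 2 and 3. With no filter on low counts the call of Psmb8 was lost in both comparisons (edgeR adjusted p = 0.0632 and 0.0654), as it was with only the 8 libraries compared (0.139 and 0.0683). The log2 fold change of Psmb8 was negative in all of these fits. After BJIKT it was 0.33 higher on the log2 scale than in LowAhR+AD, with a 95% interval of -0.15 to 0.81 (edgeR adjusted p = 0.658).

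Psmb9 (beta 1i) had 5.52, 12.5, 13.7 and 15.4 CPM in Cont replicates 1 to 4, 30.2, 20.5, 13.53 and 25.9 in LowAhR, 0.763, 10.6, 7.46 and 13.01 in LowAhR+AD, and 17.7, 10.3, 26.2 and 17.4 in LowAhR+AD+BJ. LowAhR and LowAhR+AD did not overlap, but the highest LowAhR+AD library and the lowest LowAhR library were nearly equal. The log2 fold change was -1.50 (SE 0.56, edgeR adjusted p = 0.0856, exact permutation p = 0.0286), and -1.12 (edgeR adjusted p = 0.0819) without LowAhR+AD replicate 1. LowAhR+AD replicate 1 had 10 counts of Psmb9, and the other libraries of its group up to 162. Psmb10 (beta 2i) ranged from 41.2 to 81.8 CPM over all libraries, with group means of 50.3 ± 5.78, 63.4 ± 15.5, 59.5 ± 13.4 and 72.2 ± 10.9 CPM (SD, n = 4 each) from Cont to LowAhR+AD+BJ. Its groups overlapped in all 5 comparisons. Every LowAhR+AD+BJ library was above every Cont library, but that pair of groups is not among the 5. The share of all genes without overlap in that pair was not counted. LowAhR+AD stood at -0.09 from LowAhR on the log2 scale (edgeR adjusted p = 0.834), or -0.20 without LowAhR+AD replicate 1.

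The level of each immunoproteasome subunit can also be set against the constitutive subunit whose place it takes, within each library, which leaves library size out. The log2 ratio of Psmb8 to Psmb5 counts was -0.35, -0.07, -0.19 and -0.48 in Cont replicates 1 to 4, -0.20, 0.16, -0.20 and -0.45 in LowAhR, -1.54, -2.04, -1.37 and -1.40 in LowAhR+AD, and -1.21, -1.77, -0.35 and -1.23 in LowAhR+AD+BJ. Every LowAhR+AD library was below every LowAhR and every Cont library in this ratio, and LowAhR+AD+BJ replicate 3 was at the level of the groups without DNCB. The mean ratio was -1.59 ± 0.31 (SD, n = 4) in LowAhR+AD and -0.17 ± 0.25 in LowAhR, a difference of -1.42 (exact permutation p = 0.0286, adjusted p = 0.143 over 15 ratio tests), and the difference from Cont was -1.32 (exact permutation p = 0.0286, adjusted p = 0.143). Both sides of the ratio moved, as Psmb5 rose from 149.6 ± 20.9 CPM in LowAhR to 246 ± 54.9 in LowAhR+AD (log2 fold change 0.72, edgeR adjusted p = 0.0485). Without LowAhR+AD replicate 1, the change of Psmb5 was 0.68 (edgeR adjusted p = 0.0806).

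The ratio of Psmb9 to Psmb6 also separated LowAhR+AD from LowAhR, with a difference of -2.32 (exact permutation p = 0.0286, adjusted p = 0.143 over the 15 tests). Single LowAhR+AD libraries were at -8.01, -4.39, -4.77 and -4.53, so replicate 1 was far below the others, and without it the difference was -1.46. The ratio of Psmb10 to Psmb7 differed by 0.24 (exact permutation p = 0.6), and by -0.03 without LowAhR+AD replicate 1. No ratio separated LowAhR+AD+BJ from LowAhR+AD, where Psmb8 to Psmb5 differed by 0.45 (exact permutation p = 0.286), or by 0.19 without LowAhR+AD+BJ replicate 3.

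**Figure D3:**
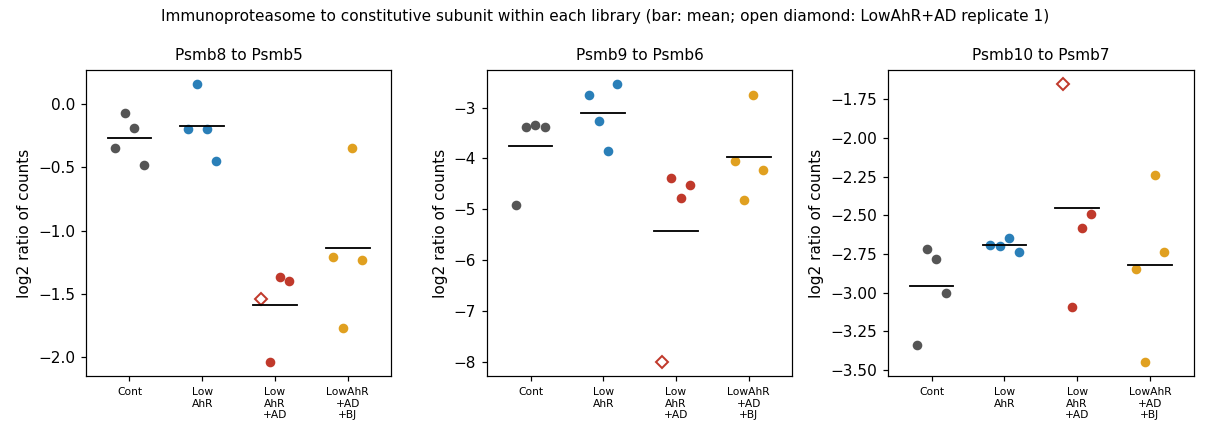
Log2 ratio of counts (y axis) of each immunoproteasome subunit to the constitutive subunit it replaces, per library and group; bars are means and the open diamond is LowAhR+AD replicate 1. In Psmb8 to Psmb5 the LowAhR+AD libraries, from -2.04 to -1.37, lie below all Cont and LowAhR libraries, while Psmb10 to Psmb7 overlaps.

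Nlrc5, the class I transactivator, had 69.5, 71.6, 60.2 and 39.7 CPM in Cont replicates 1 to 4, 47.9, 33.5, 22.1 and 13.7 in LowAhR, 102, 16.6, 12.4 and 16.5 in LowAhR+AD, and 14.8, 22.8, 27.6 and 29.3 in LowAhR+AD+BJ. Apart from LowAhR+AD replicate 1, its DNCB libraries were all below the Cont libraries, and 3 of the 4 LowAhR libraries were too. For LowAhR+AD+BJ against Cont, the share of all genes without overlap was not counted. The log2 fold change of Nlrc5 in LowAhR against Cont was -1.04 (SE 0.55, 95% interval -2.19 to 0.11, edgeR adjusted p = 0.425, exact permutation p = 0.0571). Between LowAhR+AD and Cont, it was -0.70 (edgeR adjusted p = 0.394) with LowAhR+AD replicate 1 and -2 (edgeR adjusted p = 0.00102) without it. In that comparison 3 genes (Tap1, Psmb8 and Nlrc5) were called without this library, beside 23.2% of all genes, and 1 with it. Between LowAhR+AD and LowAhR, the change of Nlrc5 was 0.34 with this library and -0.96 without it, and that of Tap1 was 0.29 and -0.71, none of them called (edgeR adjusted p = 0.736, 0.0969, 0.728 and 0.137).

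After BJIKT, 0 of the 10 genes and 0% of all tested genes were called against LowAhR+AD by edgeR. The lowest adjusted p among the 10 was 0.499 from edgeR, for B2m. At an unadjusted p under 0.05 were 3 of the 10 (B2m, Tap2 and Psmb9, all higher) and 9.46% of all genes. LowAhR+AD replicate 1 was the lowest of all libraries in each of these 3. Their log2 fold changes were 0.72, 1.84 and 1.17 with it and 0.54, 1.43 and 0.79 without it. DESeq2 called 0 of the 10 and 0.114% of all genes, and limma voom 0 of the 10 and 0% of all. Of the 10 genes, 7 were higher and 3 (Tap1, Tapbp and Nlrc5) lower, with a median log2 fold change of 0.35 beside 0 over all genes. The 3 lower ones were those in which LowAhR+AD replicate 1 was the highest library, and without it Tap1 and Nlrc5 were higher after BJIKT, by 0.37 and 0.63 on the log2 scale. No gene of the 10 separated these groups, where 5.08% of all genes did. Between LowAhR+AD+BJ and LowAhR, 0 of the 10 genes were called by edgeR, 0 had an unadjusted p under 0.05, and DESeq2 and limma voom called 0. Over all genes edgeR called 6.77%, DESeq2 11.3% and limma voom 6.77%, and 22.2% were at an unadjusted p under 0.05. None of the 10 separated these groups, as 17.1% of all genes did. The log2 fold changes there ran from -0.39 (Psmb8) to 0.19 (Psmb10).

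Over the 16 libraries, the Pearson correlation of log2 CPM between 2 of them ran from -0.49 to 0.94 over the 45 pairs, with a median of 0.07 and 27 pairs above 0, and the libraries share 4 groups and 1 tissue. Leaving out LowAhR+AD replicate 1, the median was 0.26 and 32 pairs were above 0. Tap1 and Nlrc5 had the highest value, 0.94, and 0.92 after the group means were taken out. Without LowAhR+AD replicate 1 these were 0.93 and 0.76. H2-D1 and B2m followed with 0.90 (0.91 with group means taken out), and without that library 0.82 and 0.84. H2-K1 was at 0.05 with H2-D1, whose upstream stretch is near-identical (0.22 without that library), and at 0.71 with Psmb8. Tap1 and Psmb9, which share an upstream region, had -0.44, and -0.16 without LowAhR+AD replicate 1. Among genes outside the group, those most correlated with the mean of the 10 (each first standardised over the 16 libraries) were Gbp5 at 0.85, Cubn at 0.82, Gm4070 at 0.81, and Cfl2 and Gvin1 at 0.79. Gbp5 encodes an interferon-inducible GTPase, Cubn the endocytic receptor cubilin and Cfl2 a muscle cofilin. With group means taken out, these values were 0.67, 0.64, 0.62, 0.53 and 0.55. They are descriptions over 16 libraries.

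**Figure D4:**
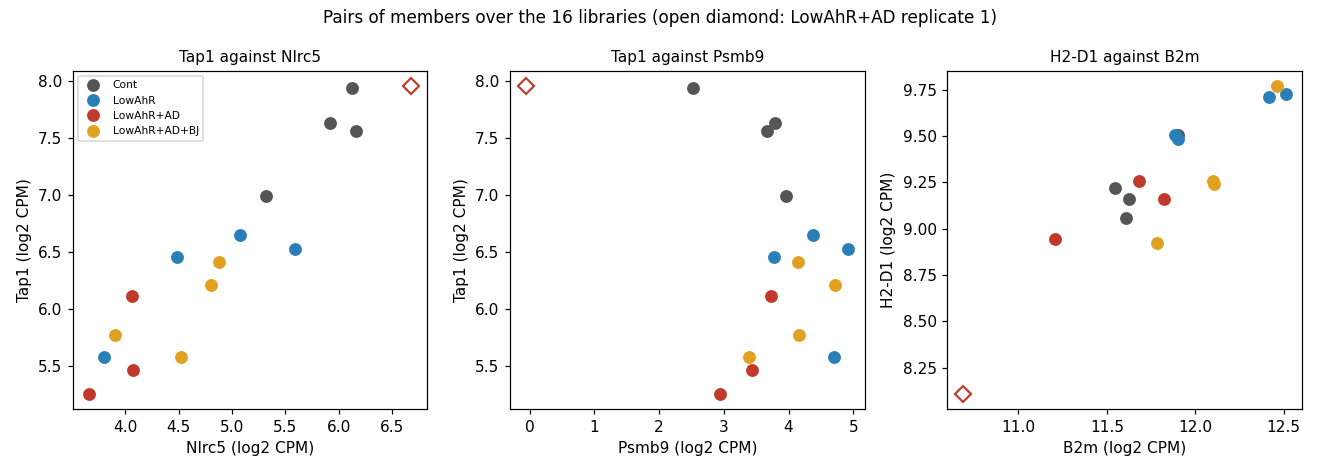
Log2 CPM of 3 pairs of the class I presentation genes over the 16 libraries, coloured by group, with LowAhR+AD replicate 1 as an open diamond. Tap1 rises with Nlrc5 (r = 0.94) and H2-D1 with B2m (r = 0.90), and Tap1 against Psmb9 (r = -0.44) has no such line.

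Other genes of the pathway were counted from lists. Of 15 other class I chain genes (the nonclassical H2-Q, H2-T and H2-M genes, Mr1 and Cd1d1), 10 were tested, and in LowAhR+AD against LowAhR 2 were called, both lower, beside 6.21% of all genes. The median log2 fold change of the 10 tested was -1.06. H2-M2, a nonclassical class I gene, had 83.7, 99.6, 60.4 and 33.5 CPM in LowAhR replicates 1 to 4 and 0, 1.56, 3.26 and 2.41 in LowAhR+AD. It fell by 5.25 on the log2 scale (edgeR adjusted p = 0.00237), without overlap, and by 4.85 without LowAhR+AD replicate 1. After BJIKT, H2-M2 had 1, 4.79, 38.8 and 4.74 CPM, which is 2.77 higher on the log2 scale than LowAhR+AD (edgeR adjusted p = 0.498). Cd1d1, which presents lipids to NKT cells, fell from 30.8 ± 14.5 to 11.7 ± 4.78 CPM (SD, n = 4). Its log2 fold change was -1.39 (edgeR adjusted p = 0.0306), or -1.17 (edgeR adjusted p = 0.0628) without that library, when H2-M2 and H2-T22 were the genes called. Cont replicates 1 to 4 had 7.32, 5.43, 8.02 and 10.1 CPM of Cd1d1, which overlaps with LowAhR+AD. Against Cont, 3 of the 10 were called lower, beside 9.47% of all genes: H2-M2, H2-M3 (log2 fold change -2.10, edgeR adjusted p = 0.0034) and H2-T10 (log2 fold change -1.47, edgeR adjusted p = 0.021). Many H2-Q and H2-T genes are close in sequence, which makes single values such as that of H2-T10 uncertain.

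Of 7 genes of peptide loading and trimming, Hspa5, a chaperone of the endoplasmic reticulum, rose from 521 ± 137 to 1116 ± 230 CPM in LowAhR+AD against LowAhR (log2 fold change 1.10, edgeR adjusted p = 0.00627). Tapbpl, a tapasin-related peptide editor, fell from 14.9 ± 2.60 to 5.66 ± 2.41 CPM (log2 fold change -1.40, edgeR adjusted p = 0.026), and the other 5 were not called. Over all genes 6.42% were called higher and 6.21% lower. Without LowAhR+AD replicate 1, Calr was called as well (log2 fold change 0.84, edgeR adjusted p = 0.0115). The calls of Hspa5 and Tapbpl stayed, beside 11.4% of all genes called. Against Cont, with all libraries, 3 of the 7 were called higher (Calr by 1.32, Pdia3 by 1.33 and Hspa5 by 1.48 on the log2 scale), beside 12.3% of all genes. All of these serve protein folding in general as well. Among 14 constitutive core proteasome genes, 2 rose in LowAhR+AD against LowAhR (Psmb3 by 1.33 and Psmb5 by 0.72 on the log2 scale) and 0 fell, with a median of 0.24, beside 6.42% of all genes called higher. Against Cont 5 rose (Psma2, Psmb3, Psmb4, Psmb5 and Psmb6) and 0 fell, beside 12.3% of all genes called higher. Without LowAhR+AD replicate 1, those counts were 4 and 7, beside 11.4% and 23.2% of all genes called in either direction. Of the 3 genes of the proteasome activators, Psme3 rose by 0.66 on the log2 scale (edgeR adjusted p = 0.0454) against LowAhR, a call that was lost without that library, and by 1.09 against Cont. Psme1 and Psme2, the interferon-inducible ones, were at -0.27 and -0.33 on the same scale (edgeR adjusted p = 0.528 and 0.399).

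Of 16 interferon and class I regulator genes, 15 were tested. In LowAhR+AD against LowAhR edgeR called 0 of them, beside 12.6% of all genes. The unadjusted p was under 0.05 for 1 of them, beside 28.1% of all. Against Cont, Irf2 was the 1 gene called, lower by 0.88 on the log2 scale (edgeR adjusted p = 0.0351), beside 21.8% of all genes. Without LowAhR+AD replicate 1, 0 were called against LowAhR and 2 lower against Cont, beside 11.4% and 23.2% of all genes called. These were Irf2 (log2 fold change -1.18, edgeR adjusted p = 0.00455) and Ifngr1 (log2 fold change -0.79, edgeR adjusted p = 0.0236). The interferon-responsive factor Irf1 was at -0.22 on the log2 scale in LowAhR+AD relative to LowAhR (edgeR adjusted p = 0.688). Ifng, the type II interferon gene, had no count in 15 of the 16 libraries (up to 0.229 to 0.406 CPM allowed) and 5 counts in LowAhR+AD+BJ replicate 3. Of the 49 genes tested in these 5 lists, edgeR called 0 in LowAhR against Cont and 0 in LowAhR+AD+BJ against LowAhR+AD, with 5 and 7 of them at an unadjusted p under 0.05, beside 13.7% and 9.46% of all genes. In LowAhR+AD+BJ against LowAhR, Hspa5, Psma3 and Psmb3 rose by 1.04, 0.82 and 1.43 on the log2 scale, beside 3.64% of all genes called higher.

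**Figure D5:**
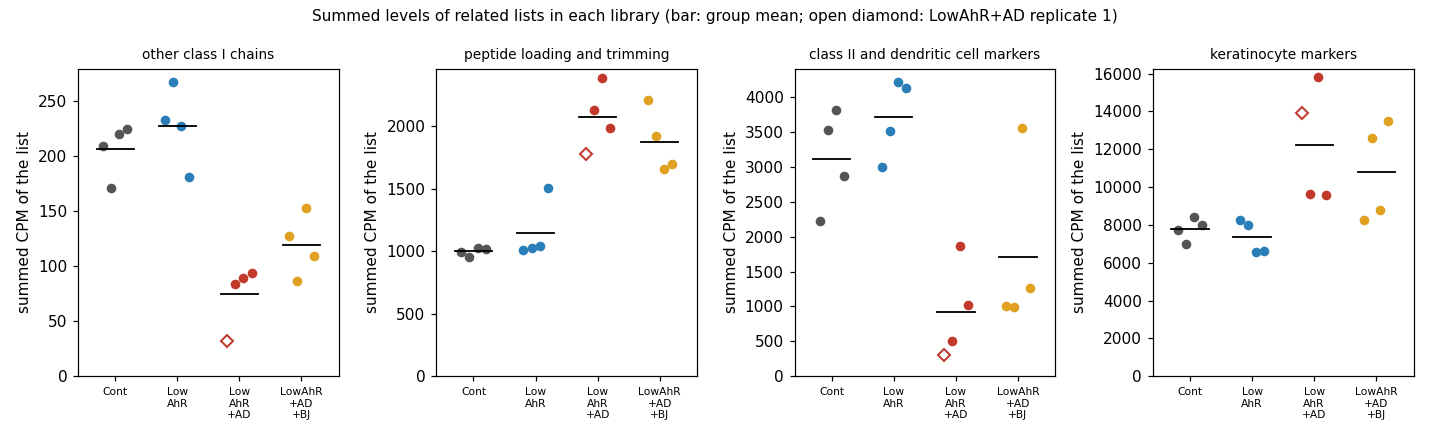
Summed CPM (y axis, from 0) of 4 gene lists in each library by group; bars are group means and the open diamond is LowAhR+AD replicate 1. The other class I chains sum to 181 to 268 CPM in LowAhR and 32.3 to 94.2 in LowAhR+AD. In LowAhR+AD the sum of class II and dendritic cell markers is lower, and the sums of peptide loading genes and of keratinocyte markers are higher. None of the 4 sums overlaps with LowAhR. Hspa5 gives the largest part of the peptide loading sum, and of the single genes in that list 5 of 7 were higher and 2 lower.

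Markers of cell types in the skin moved in LowAhR+AD against LowAhR as well. Over all genes, 6.21% were called lower and 6.42% higher in this comparison, and 28.1% were at an unadjusted p under 0.05. The leukocyte markers summed to 333 to 432 CPM in LowAhR and 101 to 278 in LowAhR+AD, with 5 of 5 lower and Ptprc called (log2 fold change -1.17, edgeR adjusted p = 0.0264). Class II and dendritic cell markers summed to 3000 to 4210 CPM in LowAhR, 309 to 1860 in LowAhR+AD and 996 to 3560 in LowAhR+AD+BJ, and 8 of 8 were lower in LowAhR+AD than in LowAhR, with Cd74 and H2-Ab1 called. T cell markers summed to 20.2 to 35.3 CPM in LowAhR and 0 to 9.33 in LowAhR+AD, with 6 of 6 lower and Cd3e and Cd3g called. The 5 NK and cytotoxic cell markers summed to 6.8 to 16.4 CPM in LowAhR and 0 to 10.9 in LowAhR+AD. Ncr1 and Prf1 were at 0 in all LowAhR+AD libraries, Ncr1 also in all Cont libraries, and Gzmb in all LowAhR libraries. Macrophage markers summed to 1090 to 1270 CPM in LowAhR and 204 to 1340 in LowAhR+AD, with 6 of 6 lower, 0 called by edgeR and 0 at an unadjusted p under 0.05. Their median log2 fold change was -0.54, and -0.21 without LowAhR+AD replicate 1, when Cd68 was higher by 0.22 and the others stayed lower. Fibroblast markers summed to 23400 to 44400 CPM in LowAhR and 3350 to 17300 in LowAhR+AD, with Col1a1 and Col1a2 called lower. Muscle markers summed to 5130 to 15700 and 326 to 2680 CPM in these groups (5 of 5 called lower), and fat cell markers to 4710 to 8750 and 209 to 2550 CPM (4 of 5 called lower). Hair follicle markers summed to 92 to 8110 CPM in LowAhR and 5980 to 20100 in LowAhR+AD, with 0 of 6 called by edgeR and 3 at an unadjusted p under 0.05. The keratinocyte markers were higher in LowAhR+AD, from 6580 to 8280 CPM in LowAhR to 9570 to 15800 in LowAhR+AD, with 5 of 6 higher, Krt5 and Krt14 called, and Krt10 the 1 that was lower. Neutrophil markers summed to 4.89 to 13.7 CPM in LowAhR and 9.84 to 37.7 in LowAhR+AD, with Cxcr2 called higher (1 of 3 tested). Endothelial markers summed to 61.9 to 144 and 97.7 to 195 CPM, with 3 of 4 higher, 0 called by edgeR and 1 at an unadjusted p under 0.05. LowAhR+AD replicate 1 had the lowest sum of all 16 libraries in the leukocyte, T cell, NK and cytotoxic cell, macrophage, class II, fibroblast and fat cell lists. Without that library, the calls of Ptprc, Cd3e, Cd3g, Cd74, H2-Ab1, Col1a1, Col1a2, Krt5, Krt14 and Cxcr2 stayed, beside 11.4% of all genes called. Cdh5 (endothelial) and H2-Aa (class II) were also called. Of the muscle markers 4 of 5 were called, without Myh4, and of the fat cell markers 4 of 5. The part of these cell types in the class I values was not tested.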

How the data were processed

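QuantSeq 3′ libraries were prepared from total RNA of 16 dorsal skin samples and sequenced from a single end. The authors deposited raw read counts per gene symbol for each library, without normalization. The submitters' processing notes name Bowtie2, bedtools and mm10. Counting by strand and the treatment of reads with several matches are not given in the sources used here. Groups and replicate numbers were taken from the sample labels.

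The tests ran in edgeR 4.0.16 (R 4.3.3). Rows were kept by filterByExpr (minimum count 10, minimum total count 15), library sizes were scaled by TMM (factors 0.892 to 1.16), and all 16 libraries entered 1 quasi-likelihood model with group as the only term. Benjamini-Hochberg adjustment covered all 14854 tested rows, and the threshold was 0.05. Log2 CPM used a prior count of 2. For single genes, log2 CPM was also compared by an exact permutation test (two-sided), as were log2 ratios (0.5 added to each count) of 3 pairs of subunits in 5 comparisons. Scripts were tested on simulated counts. The replicates of a group differed by 16.4 to 285 chi-square per degree of freedom, so each library counted as 1.

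All 10 genes were named. From the pathway lists, called genes were named, those with the lowest adjusted p before others, and from outside the lists the 5 genes most correlated with the mean of the 10. List genes named with values though not called (Irf1, Psme1, Psme2 and Ifng) were chosen after their values were seen. The genes and the lists were chosen with earlier results of these data known. As alternatives, the counts were also fitted with DESeq2 1.42.0, with limma voom (limma 3.58.1), with upper-quartile or RLE factors, with other filters, on only the 8 libraries compared, with muscle, hair follicle and fat marker genes taken out of the library sizes, with the replicate number as a block and with each library removed in turn. The counts over the lists without LowAhR+AD replicate 1 were added after the data were seen. Positions and promoter windows are from RefSeq, and transcript ends from GENCODE vM21, both on GRCm38.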

Additional observations from a re-analysis of the deposited data

Results flagged for a closer look

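Of 52 groups of 4 libraries (10 genes and 3 subunit ratios in 4 groups), 4 held a library whose gap to the nearest other was a larger part of the group's range than Dixon's 95% limit for 4 values, and chance alone gives about 1 group in 20. Tap2 was at 4.42 CPM in LowAhR replicate 3, below the other 3 libraries of its group. Nlrc5 was at 102 CPM in LowAhR+AD replicate 1, above the others. The log2 ratio of Psmb9 to Psmb6 was at -4.91 in Cont replicate 1 and at -8.01 in LowAhR+AD replicate 1, below the others of each group.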

How the results depend on the processing

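Among 50 log2 fold changes (10 genes in 5 comparisons), 845 values under the alternatives gave 794 with the same direction and the same side of the threshold, 16 that lost the call, 17 that gained one and 18 that changed direction. Of the members called in LowAhR+AD against LowAhR, 1 by edgeR, the count was 5 with DESeq2 (H2-D1, B2m, Tap2, Psmb8 and Psmb9), 4 with limma voom, 3 of 9 tested with at least 10 counts in every library (where the median of the members was -0.23), 0 with no filter on low counts and 0 with only the 8 libraries compared. Over all genes these settings called 18%, 14.1%, 19.6%, 9.15% and 5.49%. Leaving out 1 library gave 0 to 2 called members, beside 7.39% to 13.2% of all genes, and medians of -0.66 to -0.37. For LowAhR+AD against Cont, the members called were 2 with limma voom, 0 with no filter and 0 with only the 8 libraries compared. Over all genes these settings called 21.6%, 15.9% and 17%. With 1 library left out, 0 to 3 members were called, beside 16.1% to 23.2% of all genes. For LowAhR against Cont, 1 of the members (Tap1) was called with only the 8 libraries compared, beside 1.84% of all genes.

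The replicate numbers did not pair the libraries, as the correlations of same-numbered libraries ran from -0.0547 to 0.167. With the replicate block, 1 of the members was called in LowAhR+AD against LowAhR, B2m (adjusted p = 0.0408) in place of Psmb8 (adjusted p = 0.0777), and 0 in LowAhR+AD against Cont. Over all genes the block fit called 11.4% and 20.1% in these comparisons.

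With limma voom, the log2 fold changes of Tap1 and Nlrc5 in LowAhR+AD against LowAhR were -0.092 and -0.089 in place of 0.29 and 0.34. With 1 library left out, the changes that took both signs ran, in LowAhR against Cont, from -0.135 to 0.032 for H2-K1, -0.265 to 0.551 for Tapbp and -0.07 to 0.218 for Psmb8. In LowAhR+AD against LowAhR they ran from -0.706 to 0.559 for Tap1, -0.24 to 0.848 for Tapbp, -0.249 to 0.019 for Psmb10 and -0.955 to 0.679 for Nlrc5, and from -0.03 to 0.28 for the ratio of Psmb10 to Psmb7. In LowAhR+AD+BJ against LowAhR+AD they ran from -0.883 to 0.368 for Tap1 and -0.936 to 0.628 for Nlrc5, and in LowAhR+AD+BJ against LowAhR from -0.198 to 0.044 for B2m, -0.603 to 0.229 for Tapbp and -0.546 to 0.032 for Nlrc5. None of these was called at either end. The cause of these differences was not tested. Tap2 and Psmb9 rest on few counts in LowAhR+AD replicate 1, 1 and 10.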
